A study of Mus musculus with 24 samples.

Results

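Regions of the mouse genome at which a PRDM16 antibody gave a peak in a single library were described here. Overlapping peaks of the 8 PRDM16 peak lists were merged, which gave 1693 regions on chromosomes 1 to 19, X and Y. Of these, 1491 regions (88.1%) had a peak in exactly 1 list and are called single-list regions, and each of them was made of 1 peak. The other 202 regions had a peak in 2 or more lists and are called multi-list regions. The single-list regions were chosen by the peak calls themselves, so their number, width and score are given as a description, without a test. Position relative to genes and overlap with histone marks were not used to choose them and were tested over libraries. None of the 32 tests reached an adjusted p of 0.05, and 2 had an unadjusted exact permutation p under 0.05, so differences below are given as values.

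The study mapped PRDM16 and the histone marks H3K4me1 and H3K4me2 with CUT&RUN, in which a nuclease tethered to an antibody cuts chromatin and the released fragments are sequenced. The PRDM16 groups were Prdm16 KO embryoid bodies (EB) at day 6, wild-type EB at day 6, Prdm16 KO embryonic stem (ES) cells and wild-type ES cells, all of C57BL/6 strain background, with 2 libraries in each. EB are aggregates in which ES cells differentiate. The ES cells were grown with LIF, which holds them undifferentiated, and the EB in a serum medium for which no LIF is listed. The same 4 groups had 2 libraries each for H3K4me1 and for H3K4me2, which gave 16 H3K4me lists. The labels do not say how the Prdm16 allele was made, whether a line was 1 clone, or whether the 2 libraries of a group are separate cultures. The p-values below therefore reflect the spread of the libraries alone, and that spread may be technical. PRDM16 lists held 146 to 586 peaks, H3K4me1 lists 5990 to 15435 and H3K4me2 lists 13818 to 32874. Peak lists carry no read totals, so depth is unknown, and none of them checks the deletion itself. In material from many cells, a site occupied in few cells and a site with weak signal in all of them cannot be told apart.

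PRDM16 is a zinc finger protein with a PR domain, and its close relative is MECOM. It is best known for its part in brown fat identity and in blood and neural stem cells. H3K4me2 is found at promoters and active enhancers, and H3K4me1 mainly at enhancers. In CUT&RUN, an antibody used in cells that lack its target can give a background measured the same way. The peak lists do not check that the KO cells lack the target. A single-list region by definition has no peak in any other list, so these regions cannot be matched between genotypes. Whether single-list regions of KO lists are a background for those of wild-type lists was therefore not tested.

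Promoters under 6 single-list regions are shown because these regions had among the highest scores at gene ends of their groups, and because GC boxes were common in such promoters. Each window runs from 250 bp before to 50 bp after a transcription start, and is taken from RefSeq on GRCm38.p6, whose coordinates are those of mm10. Letters are 5′ to 3′ on the strand of the gene, and capitals mark each GC box, GGGCGG or its reverse complement CCGCCC. Habp4 encodes a hyaluronan and RNA binding protein and Mms19 a factor of iron-sulfur cluster assembly. Dcun1d3 encodes a neddylation factor and Atoh1 a proneural transcription factor. The window of Klhdc4, a kelch domain gene, has no GC box.
Habp4 promoter, chr13:64161616-64161915, plus strand: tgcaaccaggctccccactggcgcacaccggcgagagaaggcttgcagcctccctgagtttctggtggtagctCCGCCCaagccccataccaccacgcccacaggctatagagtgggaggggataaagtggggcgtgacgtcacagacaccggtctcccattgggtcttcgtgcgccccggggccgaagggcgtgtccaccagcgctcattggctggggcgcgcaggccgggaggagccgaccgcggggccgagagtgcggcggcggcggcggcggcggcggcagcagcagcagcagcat
Mms19 promoter, chr19:41981081-41981380, minus strand: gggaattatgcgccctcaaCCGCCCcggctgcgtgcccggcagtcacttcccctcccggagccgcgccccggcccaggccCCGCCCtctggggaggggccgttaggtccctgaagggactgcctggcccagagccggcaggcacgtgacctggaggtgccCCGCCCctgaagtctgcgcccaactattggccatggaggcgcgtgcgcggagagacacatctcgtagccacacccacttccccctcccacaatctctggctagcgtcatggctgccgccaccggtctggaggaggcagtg
Avl9 promoter, chr6:56714655-56714954, plus strand: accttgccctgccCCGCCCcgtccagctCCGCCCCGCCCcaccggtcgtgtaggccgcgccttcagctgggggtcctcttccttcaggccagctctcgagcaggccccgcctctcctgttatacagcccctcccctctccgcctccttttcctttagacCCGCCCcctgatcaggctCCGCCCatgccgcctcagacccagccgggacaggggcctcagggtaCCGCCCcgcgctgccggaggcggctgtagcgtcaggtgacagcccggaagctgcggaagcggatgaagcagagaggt
Dcun1d3 promoter, chr7:119895696-119895995, minus strand: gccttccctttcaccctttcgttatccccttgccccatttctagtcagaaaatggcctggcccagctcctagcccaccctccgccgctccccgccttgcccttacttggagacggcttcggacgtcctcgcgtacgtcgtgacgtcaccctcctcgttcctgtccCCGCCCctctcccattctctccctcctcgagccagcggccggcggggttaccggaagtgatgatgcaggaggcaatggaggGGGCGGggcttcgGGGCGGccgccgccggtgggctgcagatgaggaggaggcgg
Klhdc4 promoter, chr8:121829520-121829819, minus strand: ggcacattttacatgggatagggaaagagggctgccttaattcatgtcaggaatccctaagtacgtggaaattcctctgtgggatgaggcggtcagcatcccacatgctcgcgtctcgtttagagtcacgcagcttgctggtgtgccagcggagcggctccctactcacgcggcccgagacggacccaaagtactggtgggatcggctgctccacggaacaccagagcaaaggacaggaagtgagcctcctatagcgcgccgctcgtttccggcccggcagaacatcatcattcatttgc
Atoh1 promoter, chr6:64728875-64729174, plus strand: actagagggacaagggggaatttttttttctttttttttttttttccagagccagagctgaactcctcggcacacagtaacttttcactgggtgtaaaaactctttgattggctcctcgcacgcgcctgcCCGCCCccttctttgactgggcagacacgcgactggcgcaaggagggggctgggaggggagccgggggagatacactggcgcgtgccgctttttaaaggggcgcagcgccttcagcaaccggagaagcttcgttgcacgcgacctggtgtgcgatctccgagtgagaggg

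The Habp4 region, in EB KO replicate 2, had a score of 85.64, rank 46 of 187 peaks, and lay over all 8 H3K4me2 lists and 1 H3K4me1 list. The Mms19 region, in EB KO replicate 1, had a score of 77.48, rank 48 of 173, and lay over all 8 H3K4me2 lists and no H3K4me1 list. The Avl9 region, in EB wild-type replicate 2, had a score of 112.39, rank 49 of 258, and lay over all 8 H3K4me2 lists and 1 H3K4me1 list. These 3 promoters thus carried H3K4me2 peaks in both stages and both genotypes, while the PRDM16 antibody gave a peak in 1 library. The region over the Dcun1d3 window, whose nearest gene is Lyrm1, came from ES KO replicate 1 with a score of 110.79, rank 64 of 586, and lay over 8 H3K4me2 and 4 H3K4me1 lists. The region at Klhdc4, from ES wild-type replicate 1, had a score of 95.41, rank 58 of 331, and lay over 8 H3K4me2 and 6 H3K4me1 lists. The region at Atoh1, from the same library, had a score of 81.74, rank 75 of 331, and lay over 2 H3K4me2 and 5 H3K4me1 lists. Atoh1 differed from the other 5 in that most of its H3K4me peaks were of H3K4me1.

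Single-list regions made up most of 6 of the 8 lists. In EB they numbered 105 and 109 in KO lists and 62 and 158 in wild-type lists. In ES cells they numbered 424 and 349 in KO lists and 212 and 72 in wild-type lists. The KO and wild-type numbers did not overlap in ES cells and overlapped in EB. As a share of the list they were 60.7% and 58.3% in EB KO, 42.5% and 61.2% in EB wild type, 72.4% and 69.9% in ES KO and 64.0% and 37.7% in ES wild type. Longer lists held more of them, except that ES wild-type replicate 2, with 191 peaks, held fewer than both EB KO lists, with 173 and 187. When each list was reduced to its 146 highest-scoring peaks, the length of the shortest list, the numbers were 84 and 79 in EB KO, 68 and 63 in EB wild type, 48 and 46 in ES KO and 55 and 49 in ES wild type. At equal length the ES KO lists thus no longer held more than the ES wild-type lists. The log2 ratio of the mean number, KO over wild type in ES cells, was 1.44 with whole lists and -0.15 with equal lengths.

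Their scores lay close to the lowest score of 50.01 in the PRDM16 lists. The score is the authors' own value, deposited without a stated unit, and serves only to describe and rank peaks within a list. Median scores ran from 54.39 to 57.765 over the 8 libraries, and 13 single-list regions had a score of at least 100. The best rank reached by a single-list region was 48 and 46 in EB KO, 41 and 49 in EB wild type, 50 and 64 in ES KO and 47 and 53 in ES wild type, so the top 40 peaks of each list were all in multi-list regions. Single-list regions had a median width of 603 bp and a median score of 55.61, against 1000.5 bp and a median best score of 70.64 in the 78 regions in exactly 2 lists, which lie just outside the definition. A region in 2 lists joins at least 2 peaks and takes the better score, which by itself widens it and raises that score. Of these 78, 28 joined the 2 libraries of 1 group, and 20 of those 28 joined the 2 ES KO libraries.

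Width differed between libraries more than score did. Median widths were 850 and 825 bp in EB KO, 916.5 and 1005.5 bp in EB wild type, 474 and 468 bp in ES KO and 634.5 and 1021.5 bp in ES wild type. KO medians lay below wild-type medians in both stages. Peaks of the same libraries in multi-list regions were ordered alike in ES cells, with medians of 663.5 and 645.5 bp in ES KO and 821 and 1204 bp in ES wild type. Narrow peaks were thus a property of the whole ES KO lists. With 146 peaks in each list the medians were 866 and 862 bp in EB KO, 916.5 and 1070 bp in EB wild type, 615 and 585.5 bp in ES KO and 766 and 1132 bp in ES wild type, an alternative chosen after seeing the data. The plot of widths by library shows this order.

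**Figure D1:**
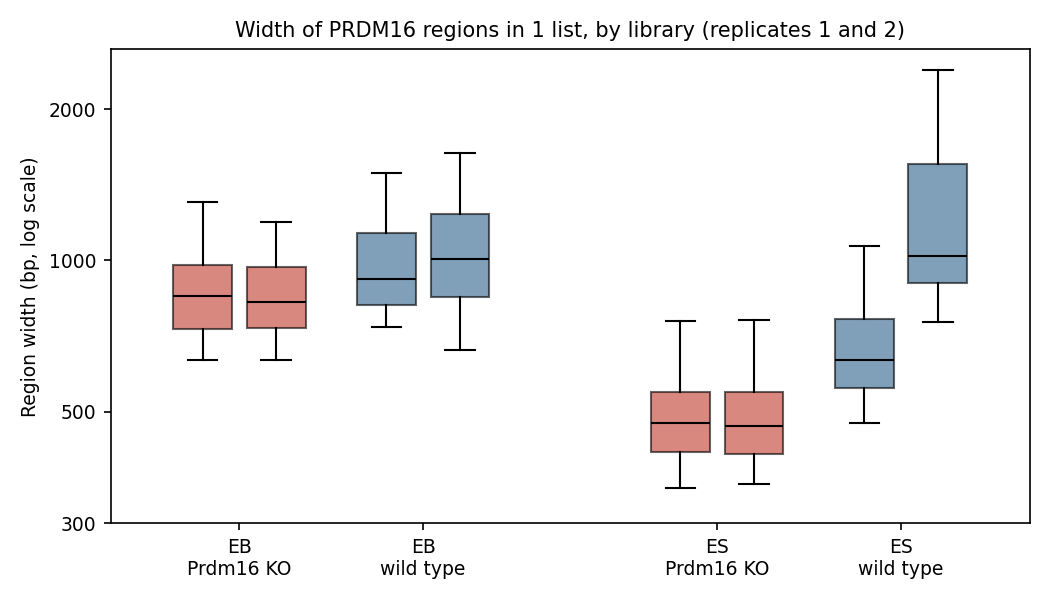
Width in bp, on a log axis, of the single-list regions of each PRDM16 library, with replicates 1 and 2 of each group side by side. Boxes give the median and quartiles and whiskers the 5th and 95th percentiles. ES KO libraries have the lowest medians, 474 and 468 bp, and ES wild-type replicate 2 the highest, 1021.5 bp.

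Single-list regions of EB libraries lay at gene ends more often than those of ES libraries. A gene end is the start or the end of the span of one of 21887 protein-coding genes, with 2500 bp on either side. Of the 1491 single-list regions 496 lay at a gene end (33.3%), against 33% of all 1693 PRDM16 regions. The single-list regions make up most of the 1693, so these shares lie close by construction. The share was 51.4% and 36.7% in EB KO, 45.2% and 69.6% in EB wild type, 22.2% and 24.4% in ES KO and 26.4% and 40.3% in ES wild type. With whole lists the EB libraries lay above the ES libraries within each genotype, although EB KO replicate 2 lay below ES wild-type replicate 2. The mean was 44.1% ± 10.4 in EB KO and 57.4% ± 17.3 in EB wild type, against 23.3% ± 1.55 in ES KO and 33.3% ± 9.80 in ES wild type (SD, n = 2 each). The EB minus ES difference was 22.4 percentage points (two-sided exact permutation of stage within genotype, p = 0.0556, the smallest that 36 assignments allow, adjusted p = 0.254 over 32 tests). The sample titles name library series. Of the PRDM16 libraries, all 4 of EB, ES KO replicate 2 and ES wild-type replicate 1 belong to one, called the first series here. The other 2 ES PRDM16 libraries belong to another, called the second series. H3K4me2 ES KO replicate 2 and H3K4me2 EB wild-type replicate 2 belong to yet another series. They held 32874 and 19246 peaks, the most of the H3K4me2 lists of their stage, and the part of this series was not tested. Without the second series the EB minus ES difference at gene ends was 25.1 points. With equal PRDM16 list lengths it was 17.3 points (exact permutation p = 0.111, adjusted p = 0.533). EB wild-type replicate 1, at 42.6%, then lay below ES wild-type replicate 2, at 44.9%.

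Over tabulated promoter windows the stages did not overlap. Of the single-list regions 279 lay over such a window, and of all PRDM16 regions 18.7%. By library the share of single-list regions was 32.4% and 22.9% in EB KO, 33.9% and 52.5% in EB wild type, 9.67% and 9.17% in ES KO and 13.7% and 19.4% in ES wild type. The EB minus ES difference was 22.4 percentage points, and the KO minus wild-type difference over both stages was -11.3, with every KO library below every wild-type library of its stage (two-sided exact permutation p = 0.0556 and adjusted p = 0.222 for each). This measure was added after seeing the data. Median distances to a gene end were 1652 and 7220 bp in EB KO, 6138.5 and 0 bp in EB wild type, 16174.5 and 12617 bp in ES KO and 12132 and 4762.5 bp in ES wild type. On the log10 scale the EB minus ES difference of these medians was -1.30 (two-sided exact permutation p = 0.111, adjusted p = 0.356), with the EB mean lower within both genotypes. It was -0.37 without EB wild-type replicate 2, whose median distance was 0 bp, -2.25 without EB wild-type replicate 1, and -0.61 with distances from the centre base of each region. Between 51.4% and 66.5% of single-list regions of a library lay inside the span of a gene.

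KO lists had lower gene-end shares than wild-type lists on average, within the spread of the libraries. In ES cells the KO minus wild-type difference was -10.1 percentage points, and every KO library lay below every wild-type library (two-sided exact permutation p = 0.333, the smallest that 6 assignments allow, adjusted p = 0.533). Within the first series the ES shares were 24.4% in KO and 26.4% in wild type, and within the second series 22.2% in KO and 40.3% in wild type. Without ES wild-type replicate 2 the difference was -3.33 points. In EB the difference was -13.3 points (exact permutation p = 0.667, adjusted p = 0.821), and it ran from -25.0 points without EB wild-type replicate 1 to -0.733 without EB wild-type replicate 2. Over both stages it was -11.7 points (exact permutation of genotype within stage, p = 0.222, adjusted p = 0.533). The KO effect in EB minus that in ES cells was -3.24 points (exact permutation p = 0.889, adjusted p = 0.948), and it changed sign without EB wild-type replicate 2, to 8.88 points.

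**Figure D2:**
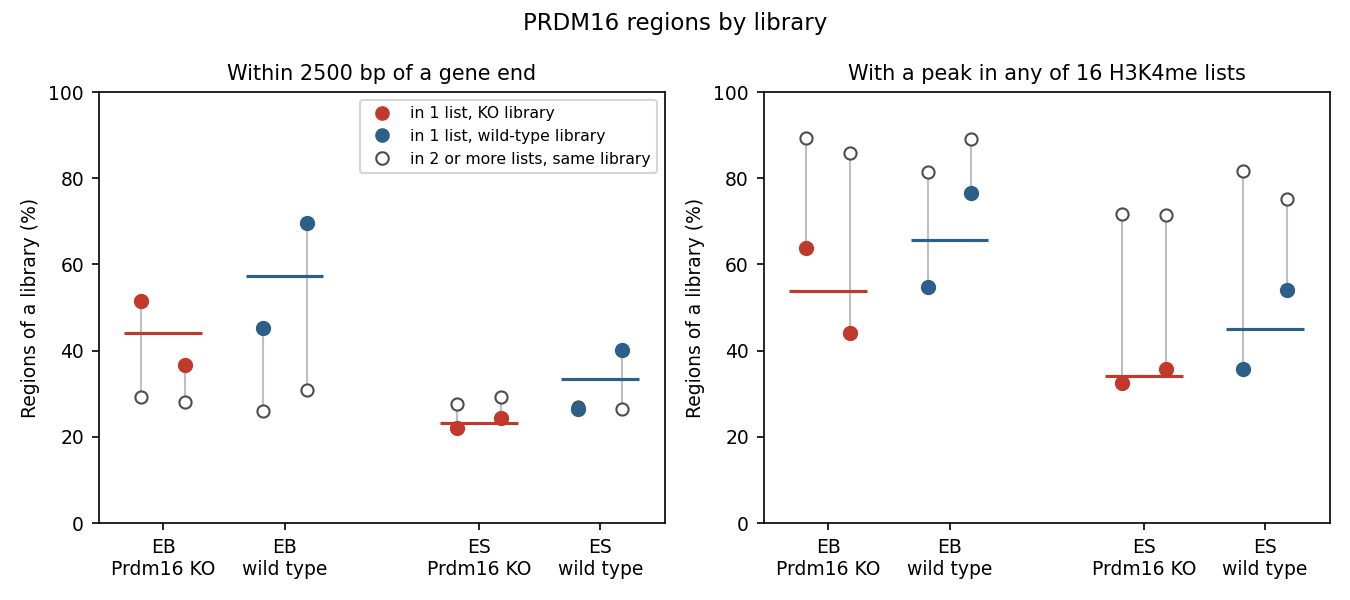
Share of regions (%) of each PRDM16 library within 2500 bp of a gene end (left) and with a peak in any of the 16 H3K4me lists (right). Filled points are single-list regions, open points the multi-list regions of the same library, and horizontal lines the mean of 2 libraries. In the right panel all 8 filled points lie below their open points, and in the left panel EB wild-type replicate 2 is highest at 69.6%.

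Single-list regions lay at gene ends in 22.2% to 69.6% of cases by library, against a narrower range of 25.9% to 31.0% for multi-list regions of the same libraries. The mean difference, single-list minus multi-list, was 11.4 percentage points (two-sided exact sign permutation over 8 libraries, p = 0.0781, adjusted p = 0.3125). It was above 0 in all 4 EB libraries and in ES wild-type replicate 2, and below 0 in both ES KO libraries and ES wild-type replicate 1. With equal PRDM16 list lengths it was 22.9 points and above 0 in 8 of 8 libraries (exact sign permutation p = 0.00781, adjusted p = 0.0833). Multi-list regions occur in several libraries, so these 8 differences are not independent.

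Fewer single-list than multi-list regions carried an H3K4me peak. Of 1491 single-list regions 648 had a peak in any of the 16 H3K4me lists (43.5%), against 46.4% of all PRDM16 regions, which left 843 single-list regions with none. The share was 63.8% and 44.0% in EB KO, 54.8% and 76.6% in EB wild type, 32.5% and 35.8% in ES KO and 35.8% and 54.2% in ES wild type. Multi-list regions of the same libraries had 89.2% and 85.9% in EB KO, 81.5% and 89.0% in EB wild type, 71.7% and 71.4% in ES KO and 81.7% and 75.2% in ES wild type. The share was lower for single-list regions in 8 of 8 libraries, with a mean difference of -31.0 percentage points (two-sided exact sign permutation p = 0.00781, the smallest possible, adjusted p = 0.25). By number of PRDM16 lists, the share was 55.1% for the 78 regions in 2 lists, 44.7% for the 38 in 3 lists and 97.5% for the 40 in all 8. The median best scores of these regions were 70.64 in 2 lists, 83.34 in 3 lists and 364.89 in all 8, and the part of score in the difference was not tested.

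Most marked regions carried H3K4me2. Of the 648, 316 had H3K4me2 only, 253 both marks and 79 H3K4me1 only. Some 91 had a peak in 1 of the 16 lists, 259 in 8 or more, and 5 in all 16. Of these 5, 4 are named here by the nearest gene, with the distance to its end. Those of ES cells were Tchh, the gene of trichohyalin (chr3:93444676-93445238, KO replicate 1, 2346 bp), and the SoxD factor gene Sox13 (wild-type replicate 1, 68397 bp). Those of EB were Kbtbd12 (KO replicate 1, 20758 bp) and Tcf7, a Wnt pathway transcription factor gene (wild-type replicate 1, 44 bp). Their scores were 56.18 at Tchh, 67.05 at Sox13, 50.45 at Kbtbd12 and 54.28 at Tcf7. Only 13 single-list regions had a score of at least 100, so these scores cannot show how H3K4me peaks and PRDM16 score go together. Regions in all 8 PRDM16 lists had a median of 15.5 H3K4me lists and a median best score of 364.89. For single-list regions these medians were 0 and 55.61. Next in number, among the regions named here, were those with Fcgr3 (3561 bp), Itpr1 (18958 bp) and Sox5 (422159 bp) as nearest gene, over 15 H3K4me lists. The region at Klhdc4 lay over 14, and those at Lrpap1 and Lrrn1 over 13.

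Single-list regions at gene ends and at distal sites had different shares of any mark and of H3K4me2 in every library. A peak in any H3K4me list lay over 73.4% to 92.7% of single-list regions at gene ends and over 18.8% to 39.6% of those elsewhere. H3K4me2 of the own stage, as the mean share over its 4 lists, covered 40.2% to 75.5% of regions at gene ends and 2.54% to 19.2% of the others. The library ranges did not overlap for either measure. No test was made, since H3K4me2 at gene ends is general.

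Taken over all positions, EB single-list regions lay under H3K4me2 more often than ES ones. The mean share over the 4 H3K4me2 lists of the own stage was 40% and 26.6% in EB KO, 35.1% and 57.4% in EB wild type, 19.8% and 16.5% in ES KO and 20.5% and 29.5% in ES wild type. The EB minus ES difference was 18.2 percentage points for H3K4me2 and 20.2 for any mark, with EB above ES within each genotype (two-sided exact permutation p = 0.0556 and adjusted p = 0.254 for each). Without the second series the difference for any mark was 23.4 points. With equal PRDM16 list lengths the difference was 13.5 points for any mark and 14.2 for H3K4me2 (exact permutation p = 0.167, adjusted p = 0.533 for each). For any mark ES wild-type replicate 1, at 61.8%, then lay above EB wild-type replicate 1, at 55.9%. For H3K4me2 the difference was 12.2 points without EB wild-type replicate 2. It was 10.4 with the higher-scoring 50% of H3K4me peaks and 0.0694 with scores of at least 100. Away from gene ends the EB means lay below the ES means, and H3K4me2 covered 8.13% ± 7.91 of distal single-list regions in EB KO and 12.1% ± 5.70 in EB wild type, against 9.0% ± 2.81 in ES KO and 16.3% ± 4.05 in ES wild type (SD, n = 2 each). The H3K4me2 lists of EB are shorter than those of ES cells, at 13818 to 19246 peaks in EB and 22615 to 32874 in ES cells. H3K4me1 had the other sign, -3.61 points (exact permutation p = 0.111, adjusted p = 0.356), and was -1.64 points without ES wild-type replicate 2, -1.69 without the second series and -6.34 with equal PRDM16 list lengths.

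**Figure D3:**
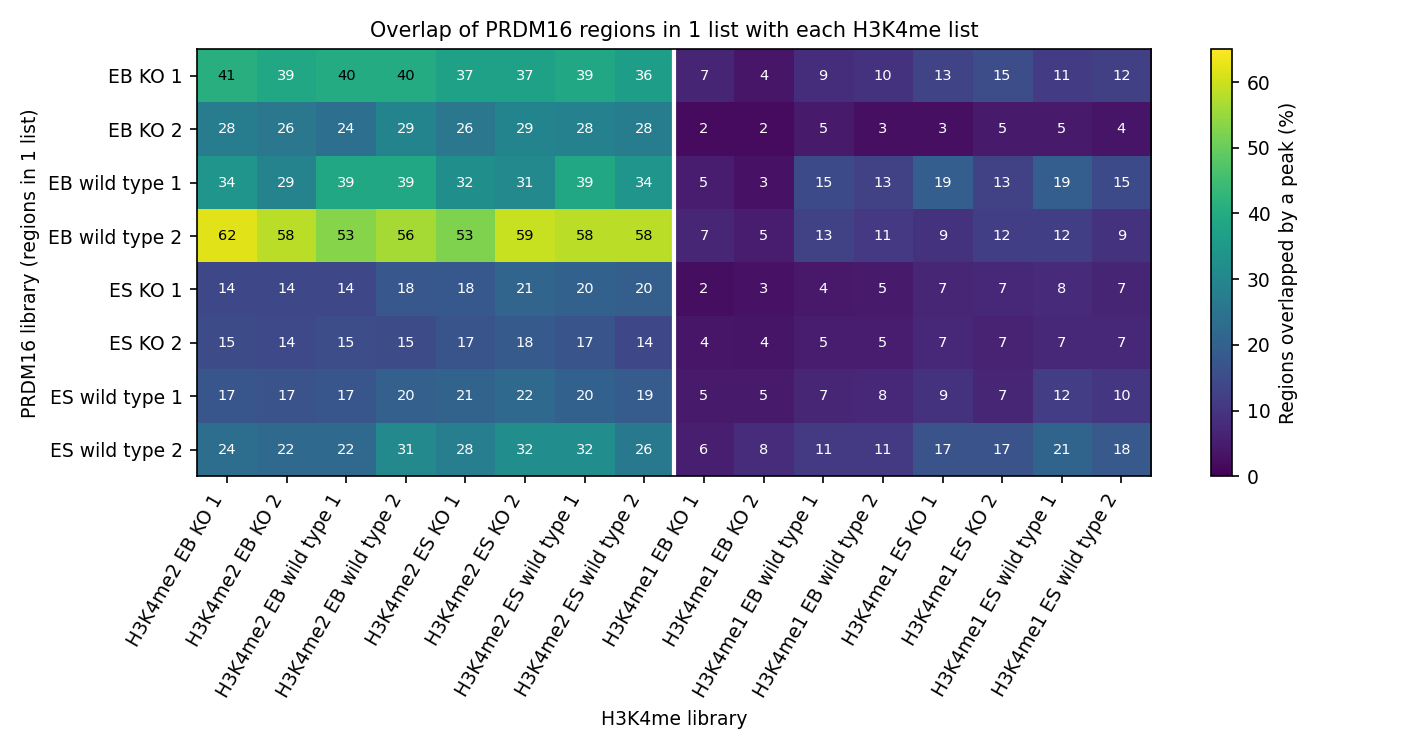
Share (%) of the single-list regions of each PRDM16 library (rows) with a peak in each of the 16 H3K4me lists (columns), H3K4me2 left and H3K4me1 right of the white line. EB wild-type replicate 2 is the brightest row over all 8 H3K4me2 lists, at 52.5% to 62.0%. ES KO replicate 1 runs from 14.2% to 21.2% over the same lists.

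Single-list regions of KO lists lay under own-stage H3K4me1 less often than those of wild-type lists, when any overlap of 1 bp counted. The mean share over the 4 own-stage lists was 7.14% and 2.75% in EB KO, against 8.87% and 8.86% in EB wild type. It was 7.31% and 7.02% in ES KO, against 9.67% and 18.1% in ES wild type. The groups did not overlap in either stage by this measure. The KO minus wild-type difference was -3.92 percentage points in EB and -6.70 in ES cells (two-sided exact permutation p = 0.333 and adjusted p = 0.533 for each). Over both stages it was -5.31 points (exact permutation p = 0.0556, the smallest that 36 assignments allow, adjusted p = 0.254), and -3.24 points without ES wild-type replicate 2. The EB difference was -1.69 points without EB KO replicate 2 and -6.11 without EB KO replicate 1, and the ES difference -2.61 points without ES wild-type replicate 2. Where a peak had to cover 50% of the region, or its centre base, the EB difference was -1.13 or -1.11 points and the EB groups overlapped (exact permutation p = 0.667 for each). Over both stages it was then -2.97 or -3.05 points (exact permutation p = 0.111 for each). Within the first series the ES values were 7.02% in KO and 9.67% in wild type, and within the second series 7.31% in KO and 18.1% in wild type.

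For H3K4me2 and for any mark the KO groups were also lower on average, with overlap between the EB groups. For H3K4me2 the KO minus wild-type difference was -13.0 points in EB (exact permutation p = 0.667, adjusted p = 0.821) and -6.87 in ES cells (exact permutation p = 0.333, adjusted p = 0.533). It was -0.456 in EB without EB wild-type replicate 2, -23.7 without EB wild-type replicate 1 and -5.55 without EB KO replicate 2. In ES cells it was -3.40 without ES wild-type replicate 2, -11.7 without ES wild-type replicate 1 and -16.6 with equal list lengths. For any mark it was -11.8 points in EB (exact permutation p = 0.667, adjusted p = 0.821) and -10.8 in ES cells (exact permutation p = 0.333, adjusted p = 0.533). Within the first series the ES shares with any mark were 35.8% in KO and 35.8% in wild type, and within the second series 32.5% in KO and 54.2% in wild type. The ES difference for any mark was -2.36 points without ES wild-type replicate 2, and the EB difference ran from -22.5 without EB wild-type replicate 1 to -0.339 without EB wild-type replicate 2. Over both stages both marks' differences had an exact permutation p of 0.222 (adjusted p = 0.533), at -9.91 points for H3K4me2 and -11.3 for any mark.

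On average over the libraries, the single-list regions followed the stage of their own library little more than the other stage. H3K4me2 lists of the own stage covered 30.7% of them on average and lists of the other stage 28.6%, a difference of 2.10 points (two-sided exact sign permutation p = 0.0234, adjusted p = 0.254). The difference was above 0 in 7 of 8 libraries, the exception being EB KO replicate 2 with 26.6% under own-stage and 27.8% under other-stage lists. For H3K4me1 it was 0.291 points (exact sign permutation p = 0.883, adjusted p = 0.948), a mean of opposite signs. It was above 0 in all 4 ES libraries and below 0 in all 4 EB libraries. H3K4me1 lists of ES cells thus covered more of the regions than those of EB in 8 of 8 libraries. Mean shares under own-stage and other-stage H3K4me1 lists were 4.95% and 8.50% in EB KO and 8.87% and 13.6% in EB wild type. They were 7.17% and 4.01% in ES KO and 13.9% and 7.52% in ES wild type. Lists of the own genotype minus lists of the other genotype differed by 0.137 points for H3K4me2 (exact sign permutation p = 0.969, adjusted p = 1) and 1.85 points for H3K4me1 (exact sign permutation p = 0.305, adjusted p = 0.533). In EB, KO H3K4me1 lists covered fewer of the regions than wild-type H3K4me1 lists did in all 4 PRDM16 libraries. Those KO lists held 8943 and 5990 peaks, against 14082 and 13260 in the wild-type lists, and the part of list length was not tested.

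The named regions with the highest score in each list were of both kinds, promoter and distal. In EB KO, Mms19 and Ero1a, an oxidoreductase gene of the endoplasmic reticulum, led replicate 1 and Habp4 led replicate 2, followed by a distal region 254735 bp from Foxp1, a forkhead factor gene, and by Gfpt1, of the hexosamine pathway. In EB wild type, the small GTPase effector gene Cdc42ep2 led replicate 1 with a score of 97.33, and Avl9 and Crat, the gene of carnitine acetyltransferase, led replicate 2. In ES KO, Carm1, an arginine methyltransferase gene, led replicate 1 with a score of 130.72, the highest of all single-list regions, at chr9:21545870-21546600 and 294 bp from its gene end. Adal, an adenosine deaminase-like gene, had a score of 109.18 in ES KO replicate 2. In ES wild type, none of the 6 highest-scoring regions lay at a gene end. They included a region 92032 bp from Castor2 in replicate 1. In replicate 2 they included a region 204292 bp from Zfp981, a zinc finger gene, and one 10731 bp from an end of Tet2. The latter lay at chr3:133532423-133534405, and the product of Tet2 oxidises methylcytosine. Each of these regions of replicate 2 lay inside the span of a protein-coding gene, which was not identified. The numbers at gene ends among the 6 were 4 in EB KO, 3 in EB wild type, 2 in ES KO and 0 in ES wild type, and 10 of these 24 regions had no H3K4me peak.

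Single-list regions lay at an end of 640 of 21887 protein-coding genes (2.92%). By group these were 119 genes in EB KO (0.544%), 183 in EB wild type (0.836%), 241 in ES KO (1.1%) and 104 in ES wild type (0.475%). Of 253 genes in 15 lists of lineage, chromatin and signalling genes, 16 had a single-list region at an end (6.32%). Naive pluripotency genes had 3 of 20: Tbx3 (ES KO replicate 1, score 77.25), Dppa5a (ES KO replicate 2, score 79.66) and Tfcp2l1 (ES wild-type replicate 1, score 53.31). None of these 3 regions overlapped an H3K4me peak in any of the 16 lists. Hox genes had 3 of 39, with 1 region at Hoxb7 and Hoxb8 (EB KO replicate 1) and 1 at Hoxb1 (ES KO replicate 1). Notch and TGF-beta pathway genes had 2 of 26, the receptor gene Notch1 and its ligand gene Jag1, both in EB wild-type replicate 2. The region at Jag1 lay over 6 and that at Notch1 over 4 H3K4me lists.

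Genes of H3K4 methylation enzymes had 2 of 18: the demethylase gene Kdm5a (EB wild-type replicate 2) and the methyltransferase gene Kmt2a (ES KO replicate 2, over 6 H3K4me2 lists). The PRDM family list, which includes the related Zfpm genes, had 2 of 17: Prdm4 (EB KO replicate 1, over all 8 H3K4me2 lists) and Zfpm1 (ES KO replicate 1). The brown fat list had 1 of 16, Cidea, of lipid droplets (ES KO replicate 1). The neuroectoderm list had 1 of 18, the homeobox gene En1 (EB KO replicate 2, over no H3K4me list), and the housekeeping list had 1 of 16, the tubulin gene Tuba1a (EB wild-type replicate 2, over 12). The 14 cardiac, 11 trophoblast, 10 primed epiblast, 15 primitive streak and mesoderm, 12 fibroblast or feeder and 13 blood and endothelial genes had none.

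The gap to the nearest peak of another PRDM16 list, in either kind of region, is given as a description. Single-list regions overlap no such peak by definition, and no comparison set was measured. Of the 1491, 25 lay within 1000 bp and 89 within 10000 bp of a peak of another PRDM16 list. The median gap was 319015 bp. At 9 genes, regions of 2 different lists lay at an end, among them Atoh1 with one in ES KO replicate 2 and one in ES wild-type replicate 1. Klhdc4 had 3, with 2 from ES wild-type replicate 1 and 1 from ES wild-type replicate 2. Olfactory receptor genes were nearest to 2 regions (0.134%, with 5.07% of genes), and genes named Zfp to 40 (2.68%, with 1.83% of genes).

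Single-list regions were unevenly spread over chromosomes. Chromosome 6 held 245 (16.4%), with 5.50% of the annotated length and 5.14% of protein-coding genes, and chromosome 8 held 185 (12.4%), with 4.75% of the length. These were 16.4 and 14.3 regions per 10 Mb, against 3.16 to 7.87 on the other 17 autosomes. Chromosome X held 5 regions (0.335%), with 6.27% of the length, and Y held 2. H3K4me1 lists had 0.684% to 1.26% and H3K4me2 lists 2.38% to 3.41% of their peaks on X. Chromosome 6 held 17.1% and 17.4% of the regions of the EB KO libraries, 16.1% and 13.3% of EB wild type, 17.7% and 13.2% of ES KO and 20.3% and 18.1% of ES wild type, so the share was high in all 8. Chromosome 8 held 10.5% and 19.3% in EB KO, 8.06% and 7.59% in EB wild type, 14.2% and 14% in ES KO and 8.96% and 11.1% in ES wild type. On chromosome 8, KO shares lay above wild-type shares in both stages, a pattern noticed in these data and not tested.

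On both chromosomes every interval of 10 Mb held at least 1 region, with uneven numbers. The 15 intervals of chromosome 6 held 8 to 26 regions each, with a median of 16. The 13 intervals of chromosome 8 held 1 to 34 each, with a median of 9. Multi-list regions were on chromosome 6 in 7.43% and on chromosome 8 in 12.9% of cases. H3K4me1 lists had 7.63% to 8.66% of peaks on chromosome 6 and 5.16% to 6.92% on chromosome 8, and H3K4me2 lists 5.50% to 6.19% and 4.66% to 5.48%. By group, chromosome 8 held 6.56% of H3K4me1 peaks in EB KO, 5.22% in EB wild type, 6.01% in ES KO and 5.68% in ES wild type. Single-list regions on chromosome 6 lay at gene ends in 20.4% and under any H3K4me peak in 33.9% of cases. On chromosome 8 these shares were 31.9% and 38.9%, and on the other chromosomes 36.5% and 46.5%. The plot of shares by chromosome shows both chromosomes above their share of the length in each library.

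**Figure D4:**
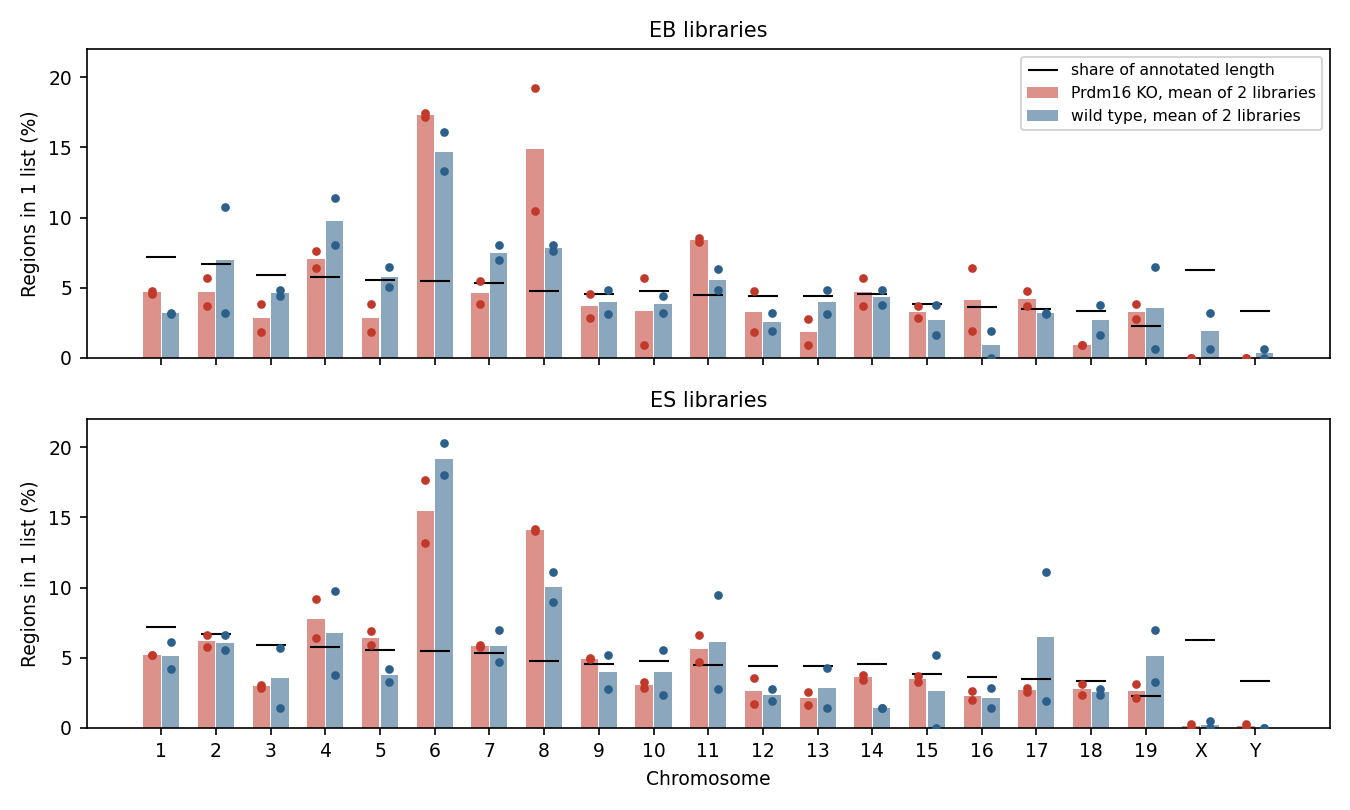
Share (%) of single-list regions on each chromosome, for EB libraries (top) and ES libraries (bottom). Bars are means of 2 libraries, points the single libraries and black lines the share of annotated length; chromosome 6 stands at 13.2% to 20.3% in every library, against 5.50% of the length.

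Promoters under single-list regions were rich in G and C. The 279 regions over a promoter window covered 390 windows of 335 genes, and these windows overlap where a gene has several starts. Median G+C content was 65.7% in EB KO, 64.7% in EB wild type, 61.3% in ES KO and 64.7% in ES wild type. Over all 390 windows it was 64.3%, with a median of 24 CpG. Windows with an H3K4me2 peak in all 4 lists of a stage had 62.0% in EB and 61.7% in ES cells, and all 32817 windows had 52.7%, with a median of 7 CpG. The median over all 390 windows thus lay near that of H3K4me2 promoters in general. The share of windows with more than 60% G+C was 86.1% in EB KO and 65.2% in EB wild type, against 59.0% of EB windows with H3K4me2. It was 54.5% in ES KO and 66.7% in ES wild type, against 55.8% of ES windows with H3K4me2. By library the EB KO share was 93.9% and 73.3%. No test was made, since windows of 1 library are not replicates.

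A GC box stood in 74.9% of the 390 windows, in 66.4% of EB and 64.2% of ES windows with H3K4me2, and in 35.6% of all windows. By library it was found in 85.7% and 73.3% of windows in EB KO, 82.4% and 79.8% in EB wild type, 70.2% and 54.8% in ES KO and 75% and 63.6% in ES wild type. The TATA box TATAAA stood in 2.31% of the 390 windows and 13.6% of all windows, the ETS core CCGGAAG in 18.7% and 8.86%, and the YY1 core, searched as AAGATGGC, in 6.15% and 2.74%. The GATA core AGATAA was found in 3.08% and 11.2%. In windows with H3K4me2 of EB and of ES cells, the TATA box stood in 5.46% and 6.09% and the ETS core in 18.5% and 16.8%. The YY1 core stood there in 4.45% and 3.79%, and the GATA core in 4.97% and 5.59%. The ETS share thus lay near that of H3K4me2 promoters in general. Both strands were searched, and a match is a string of letters and not a bound site. The motifs known for the relative MECOM, GACAAGATA for its first and GAAGATGAG for its second group of zinc fingers, were in 0 of the 390 windows and in 0.119% and 0.399% of all windows. The first of these overlaps the GATA core in 5 letters.

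**Figure D5:**
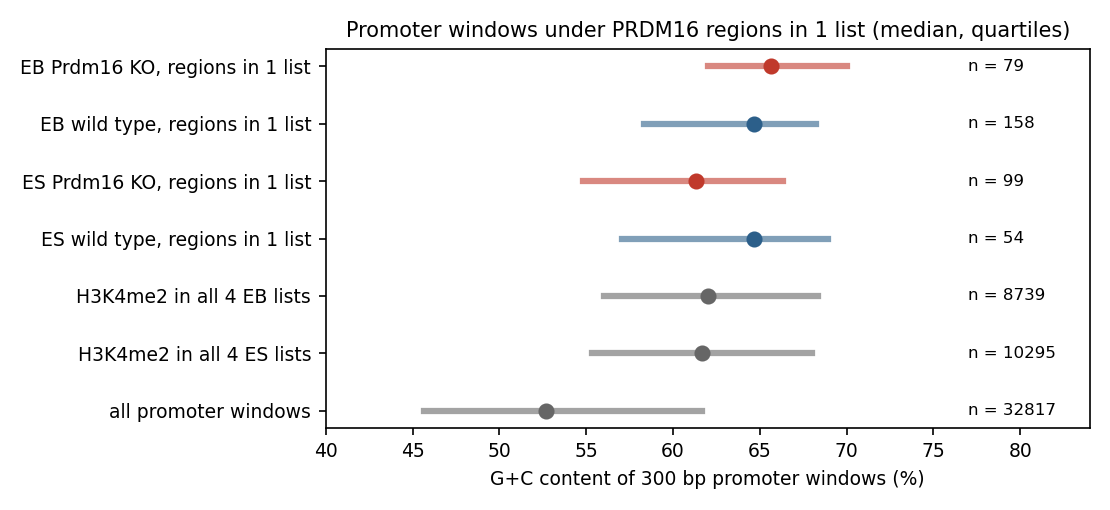
G+C content (%) of 300 bp promoter windows under single-list regions by group, beside windows with H3K4me2 in all 4 lists of a stage and all windows. Points are medians and bars run between the quartiles; all 4 groups have medians of 61.3% to 65.7%, above the 52.7% of all windows.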

How the data were processed

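PRDM16, H3K4me1 and H3K4me2 were measured by CUT&RUN in 24 libraries, 2 for each antibody, stage and genotype, with groups and replicate numbers taken from the sample titles. One list of peaks per library was used, with a score for each peak that is the authors' deposited value. The sources used here give neither the unit of that score nor the use of a control library nor the treatment of duplicate reads. Per the submitters' processing notes, the build was mm10 and the tools named were MACS2, Bowtie2, HOMER 4.10, deepTools, bedtools and SAMtools 1.5. The 1 mitochondrial peak of each list was set aside, and PRDM16 peaks on the numbered chromosomes, X and Y were merged where at least 1 bp overlapped.

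Distances were measured to either end of protein-coding genes in a RefSeq table of GRCm38.p6, without exons or UTRs. Each library gave 1 value per measure. Values were compared with two-sided exact permutation tests over libraries, and p-values were adjusted by Benjamini-Hochberg over 32 tests. The smallest p for a KO effect within 1 stage was 0.333. Python 3.11.15 with numpy 2.4.6, pandas 2.3.3 and matplotlib 3.10.9 was used, and the tests were checked on simulated data.

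The text names, by rule, the 3 highest-scoring single-list regions of each list, and in each group the 3 over the most H3K4me lists and the 3 best-ranked at gene ends. It also names those at an end of a listed gene. A region takes the name of the nearest protein-coding gene, and a few named regions are not reported here. The regions, gene lists and tests were chosen with earlier results of these data known. Alternatives were other merging, score and overlap rules, equal list lengths, other gene-end windows, each library or 1 library series left out, and the replicate number as a block.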

Additional observations from a re-analysis of the deposited data

How the results depend on the processing

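All 32 tested values missed an adjusted p of 0.05 in the exact permutation tests, as did all 574 alternative values with a test, whose smallest adjusted p was 0.0833. At an unadjusted p under 0.05 there were 2 of 32. Of all alternative values 585 kept their direction or, for region numbers and their log2 ratios, stayed within a limit. The limit was 1.5 times for numbers, and for log2 ratios the SD of log2 numbers within the groups of a stage. Another 37 changed sign and 7 counts or ratios moved, and the cause was not tested. The differences between single-list and multi-list regions and the EB minus ES difference at gene ends kept their sign under every alternative run for them. With scores of at least 100, which left 41 regions, KO minus wild type in ES cells was 17.2 points at gene ends, -0.55 in log10 distance, 13.9 points for any H3K4me, 19.9 for H3K4me2 and 1.94 for H3K4me1. There, EB minus ES was -11.9 points for any H3K4me, the KO effect on H3K4me1 in EB minus that in ES cells was -6.94, and the log2 ratio of region number, KO over wild type, was 0.34 in ES cells and -1.32 in EB. With equal PRDM16 list lengths there were 492 regions, a log2 ratio of -0.15 in ES cells, own minus other genotype for H3K4me2 of -0.338 points, and KO effects in EB minus ES cells of 1.86 for any H3K4me and 6.68 for H3K4me2. Merging within 1000 bp gave -0.0332 for own minus other genotype in H3K4me2. The higher-scoring 50% of H3K4me peaks gave -1.05 for own minus other stage in H3K4me2. Without the second library series, own minus other stage for H3K4me1 was -1.65, and the KO effect on it in EB minus ES cells -1.75. The KO effect on gene ends in EB minus that in ES cells was 0.17 with a window of 1000 bp, 4.29 with 10000 bp and 8.63 without chromosomes 6 and 8, where that for any H3K4me was 6.46. Leaving out chromosomes 6 and 8, promoter windows and equal lengths for width were chosen after seeing the data.

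Leaving out 1 library at a time, the KO effect in EB minus that in ES cells ran from -15.3 to 8.88 points at gene ends, -0.54 to 3.27 in log10 distance, -11.4 to 10.4 for any H3K4me, -16.8 to 6.78 for H3K4me2 and -1.26 to 6.28 for H3K4me1. KO minus wild type in log10 distance ran from -0.29 to 3.54 in EB and -0.018 to 1.90 over both stages, with the lowest values without EB wild-type replicate 2. Own minus other genotype for H3K4me2 ran from -0.818 to 0.783, and own minus other stage for H3K4me1 from -0.934 to 1.42. Region number ran from 1110 to 1448, and its log2 ratio from 0.86 to 2.34 in ES cells and -0.57 to 0.75 in EB. The deviations of same-numbered libraries had a correlation over 1693 regions of 0.00324 in EB and -0.0227 in ES cells. Most of these regions have a peak in 1 list by the rule, so this cannot decide whether the numbers pair the libraries. With the replicate number as a block the differences were the same, such as -10.1 points at gene ends in ES cells, and none passed. Unknown depth limits every comparison of list lengths.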
